A study of Mus musculus with 12 samples.

Results

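Cytosolic ribosomal protein genes encode the proteins that, with ribosomal RNA, build the small and large subunits of the ribosome outside the mitochondria. The members were chosen by name. They are the genes of probe sets with a single gene symbol that reads Rpl or Rps and a number, Rplp0 to Rplp2 or Rpsa, with ribosomal S6 kinase genes and pseudogene symbols left out. The rule found 35 genes on 49 probe sets of the 12422 in the table, and the brightest probe set by its mean over 12 arrays stood for each gene. Of these, 25 genes were bright enough to test, among 5707 tested genes of the whole array. The 12 arrays measured RNA of perigonadal fat from female mice that were 6 months old and fed freely, with 1 mouse per array and 3 mice per group.

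Slc2a4 encodes Glut4, the glucose transporter that insulin brings to the surface of fat and muscle cells. In the overexpressor mice a Glut4 transgene ran under the aP2 promoter on the FVB strain, and their controls were FVB littermates. The knockout mice lacked Glut4 in adipose tissue, and their controls were aP2-Cre transgenic mice, so that these controls carried the Cre recombinase too. Both knockout-line groups were a mix of C57B6, FVB and SV129. The aP2 promoter drove both the transgene and the Cre. Its activity is not limited to fat cells, and perigonadal fat also holds stromal, vascular and immune cells whose share was not measured. The 2 lines differ in background and appear to have been processed apart, so each mutant group was read only against its own control.

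Cells make ribosomal proteins in nearly equal amounts, because each ribosome takes up one copy of most of them. Many of their messenger RNAs begin with a tract of C and T bases, the 5′ terminal oligopyrimidine tract, through which the growth kinase mTOR adjusts their translation. In fat cells, insulin and nutrients act on mTOR, and that control is on translation more than on the amount of the messenger RNA that an array measures.

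The 30 bases around the annotated transcript start (10 before it and 20 from it on) are given for 6 members on which the results below turn. A run near an annotated start does not show that the messenger RNA begins with it. They come from the RefSeq promoter table of build GRCm38.p6, 5′ to 3′ on the gene's strand, and capitals mark a run of at least 5 C or T bases that opens with C and overlaps the 5 bases on either side of the start.

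Rpl13a: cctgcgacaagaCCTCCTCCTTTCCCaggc

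Rps10: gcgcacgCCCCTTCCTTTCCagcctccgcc

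Rps18: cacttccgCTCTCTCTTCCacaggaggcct

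Rps27: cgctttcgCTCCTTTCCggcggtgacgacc

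Rps27l: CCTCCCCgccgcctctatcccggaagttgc

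Rplp0: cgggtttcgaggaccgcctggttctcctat

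The Rpl13a window lies at chr7:45128726-45128755 on the minus strand, and its run has 14 bases and opens at base 3 of the annotated transcript. The Rps10 window (chr17:27635225-27635254, minus strand) has a run of 13 bases, the Rps18 window (chr17:33955646-33955675, minus strand) one of 11 and the Rps27 window (chr3:90213629-90213658, minus strand) one of 9. The Rps27l window (chr9:66946076-66946105, plus strand) is the first of 2 annotated starts. Its run of 9 bases opens before the printed stretch and ends upstream of the annotated start. The Rplp0 window (chr5:115559457-115559486, plus strand) holds no such run. Of the 35 members, 28 were in the table, with 37 start windows. A run was found in 15 of the 37 windows (40.5%), against 23.7% of all 32851 windows. Of the 22 tested members in the table, 10 had a run in any window, and Rpsa had none. Over the longer windows, from 250 bases before the start to 50 after it, the ETS-type motif CCGGAAG (both strands) stood in 32.4% of member windows and 8.86% of all windows. It stood in 31.0% of the tested members' windows and 11.6% of those of protein-coding genes. The YY1-type motif AAGATGGC stood in 18.9% of member windows against 2.75% of all. Among the tested members' windows it stood in 10.3%, against 3.05% of protein-coding genes' windows, and several windows with it belong to Rpl35a, which was not tested. The E-box CACGTG stood in 10.8% against 7.15%, and the TATA-type motif TATAAA in 10.8% against 13.6%. These are matches of letters, not measured binding, and no value on the arrays bears on them.

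The array table gives intensity, the brightness of a probe set on a linear scale, and array medians ran from 185.8 to 219.4. All differences below are log2(intensity + 36.92) of the mutant minus its control, tested with limma over 7454 probe sets with Benjamini-Hochberg adjustment at 0.05. The constant understates the change of dim probe sets. Slc2a4 itself read 625, 1110 and 1042 in the overexpressors against 639, 583 and 1212 in their controls (log2 difference 0.22, 95% interval -0.35 to 0.78, adjusted p = 0.93, limma). In the knockouts it read 378, 365 and 363 against 416, 514 and 614 (-0.43, -1.0 to 0.14, adjusted p = 1.0, limma). The knockout arrays were all below their controls, and neither line passed the test. In the overexpressor line 2 arrays read against their labels: the one labelled control 3 was above all 3 overexpressors, and the one labelled overexpressor 1 was at the level of the other controls. Whether this probe set reads the transgene is not given in the sources used here, so the genotype labels of this line are not checked by the data, and every direction below rests on them. The arrays labelled overexpressor 1 and control 3 are named so throughout, and the values without them are given with the results. Of 12 fat cell marker genes, 9 were tested, and their summed intensity was 24310 to 31560 over all 12 arrays, so the labelled tissue shows its markers.

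No ribosomal protein gene passed the test in either line. After adjustment 0 of 25 members were called in the overexpressor, where 0.0876% of all tested genes were, 0 of 25 in the knockout (background 0.0876%), and 0 of 25 for the difference between the lines (background 0.123%). At an unadjusted p under 0.05 the overexpressor had 1 lower member, Rplp0, and the background was 3.68%, while the knockout had 0 (background 0.561%). The smallest adjusted p by limma was 0.913 in the overexpressor and 1.0 in the knockout. The direction was nearly uniform even so, under the labels as given and with the brightest probe set per gene. In the overexpressor 24 of 25 members had a log2 difference below 0, with a median of -0.21 (range -0.41 to 0.004), where 71.3% of all tested genes were below 0 and their median was -0.075. In the knockout 23 of 25 were below 0, with a median of -0.15 (-0.29 to 0.33), where 36.0% of all genes were and their median was 0.045. The arrays labelled overexpressor 1 and control 3 were also both left out, an alternative chosen after seeing the data. In the overexpressor 25 of 25 members were then below 0 (median -0.25), where the median of all tested genes was -0.046. In that fit 4 members had an unadjusted p under 0.05 and 0 were called (limma). The share of all tested genes at that p was not counted there. As a share of the control mean, the median member stood at 85.7% in the overexpressor (72.7% for Rpl13a to 100% for Rps27) and at 91.1% in the knockout (79.8% for Rpl13a to 130% for Rps27l). Members share libraries, so these counts describe a few arrays and not 25 independent observations. In whole tissue, fewer cells of a type and less RNA per cell cannot be told apart.

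**Figure D1:**
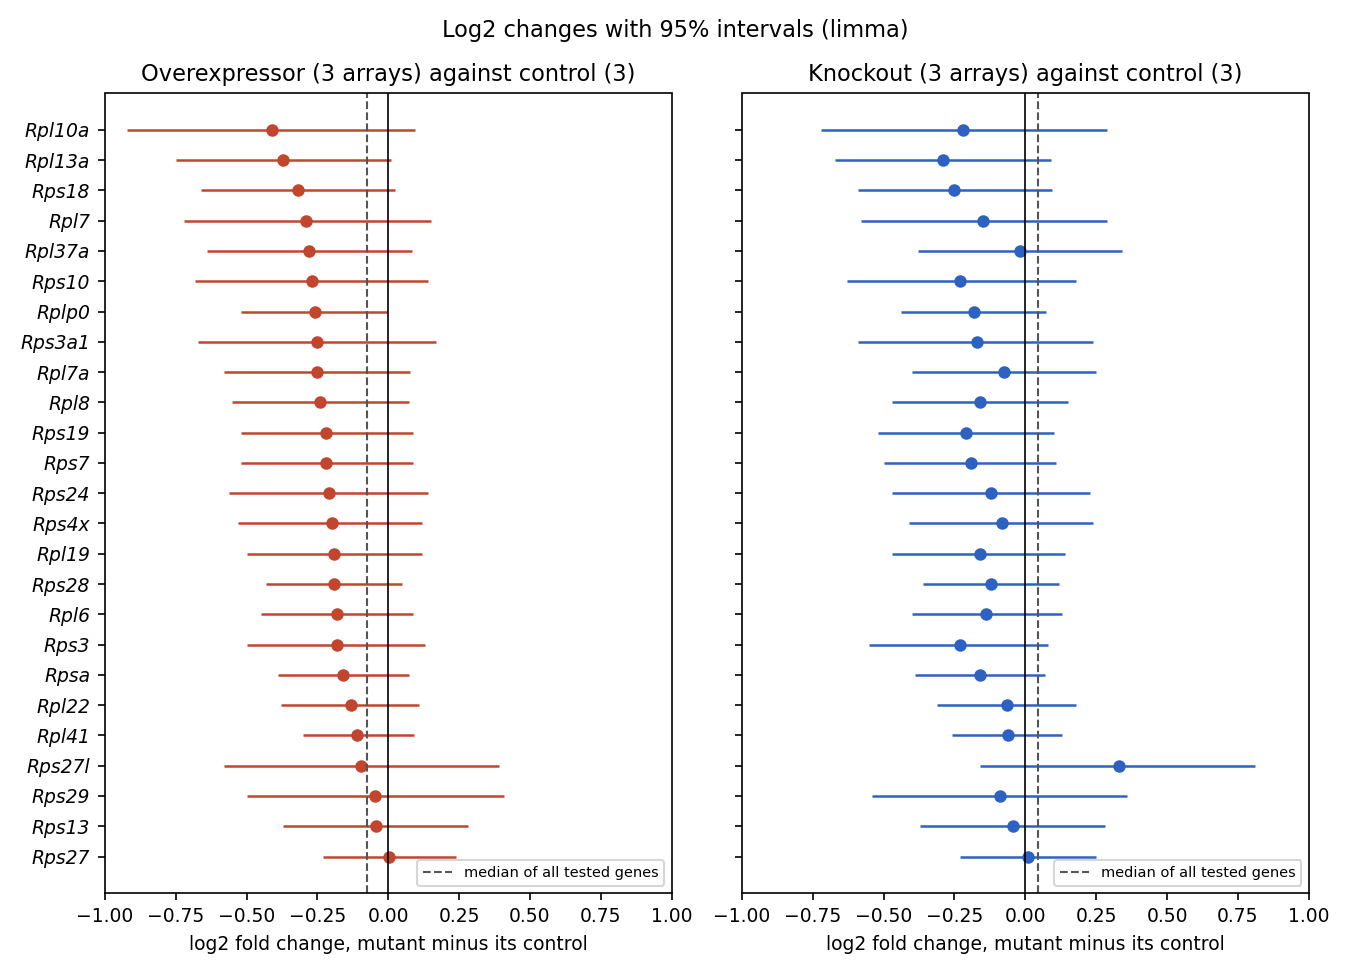
Log2 difference of each of the 25 tested members (dots) with its 95% interval (bars) in the overexpressor (left) and the knockout (right), 3 arrays against 3 in each; dashed lines mark the median of all tested genes. Nearly all dots lie left of 0, and every interval but that of Rplp0 in the overexpressor includes 0.

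Rplp0 is the base of the acidic stalk of the large subunit, which recruits elongation factors. It read 4470, 4758 and 4801 in the overexpressors against 6392, 5774 and 4774 in their controls. The array labelled control 3 lay below one overexpressor, so the groups overlapped. Its mean was 4676 ± 180 (SD, n = 3) against 5646 ± 817, a log2 difference of -0.26 (SE 0.12, interval -0.52 to -0.0032, adjusted p = 0.913, limma). In the knockout line it read 4242, 4747 and 5114 against 5567, 5451 and 4999, with overlap again (-0.18, SE 0.12, adjusted p = 1.0, limma). Without the arrays labelled overexpressor 1 and control 3, the overexpressor-line difference of Rplp0 was -0.34, that of Rpl10a -0.57, that of Rpl13a -0.59 and that of Rps18 -0.40, none of them past the test. The other stalk genes, Rplp1 and Rplp2, had no probe set of their own.

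In the large subunit, 10 of 14 members were tested. All 10 were below 0 in both lines, with a median of -0.24 in the overexpressor (-0.41 to -0.11) and -0.14 in the knockout (-0.29 to -0.019), and none passed the test. Rpl10a, a protein of the L1 stalk through which spent transfer RNA leaves, read 1324, 1675 and 1590 in the overexpressors against 2577, 2309 and 1422 in their controls. Here too the array labelled control 3 was among the mutants and the other controls were above them (-0.41, SE 0.23, interval -0.92 to 0.095, adjusted p = 0.913, limma). Rpl10a in the knockout line read 1166, 1258 and 1785 against 2032, 1561 and 1307, and the third knockout was above 2 of its controls (-0.22, SE 0.23). Rpl13a, known also for silencing selected inflammatory messenger RNAs once it is released from the ribosome, read 199, 173 and 193 against 319, 269 and 189. Only the array labelled control 3 overlapped the overexpressors (-0.37, SE 0.18, interval -0.75 to 0.011, adjusted p = 0.913, limma). Its values in the knockout line were 168, 177 and 253 against 293, 231 and 225, with the third knockout inside the control range (-0.29, SE 0.18, adjusted p = 1.0, limma).

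The large-subunit members nearest to 0 in the overexpressor were Rpl41, one of the smallest known proteins, and Rpl22, which has a role in T cell development. Rpl41 read 5890, 6396 and 6420 against 7406, 6496 and 6273 in the overexpressor line (-0.11, SE 0.09). Its values lie near the top of the table, whose highest is 8945. Rpl22 read 279, 282 and 299 against 353, 342 and 265 in the overexpressor line (-0.13, SE 0.11). In the knockout line it read 198, 196 and 204 against 207, 238 and 189, and the groups overlapped (-0.065, SE 0.11). Rpl37a differed most between the lines among large-subunit members, with -0.28 in the overexpressor and -0.019 in the knockout, and the difference between the lines was -0.26 (SE 0.24, adjusted p = 0.893, limma). The remaining Rpl6, Rpl7, Rpl7a, Rpl8 and Rpl19 lay between -0.29 and -0.18 in the overexpressor and between -0.16 and -0.075 in the knockout.

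In the small subunit, 13 of 16 members were tested, and 12 were below 0 in each line, with medians of -0.20 in the overexpressor (-0.32 to 0.004) and -0.16 in the knockout (-0.25 to 0.011). Rps18, a protein of the subunit's head, read 2719, 3105 and 3080 in the overexpressors against 4313, 3907 and 3000 in their controls. The array labelled control 3 lay within the mutant range (-0.32, SE 0.16, interval -0.66 to 0.024, adjusted p = 0.913, limma). Rps18 in the knockout line read 2813, 2934 and 3844 against 3927, 4055 and 3346 (-0.25, SE 0.16, adjusted p = 1.0, limma). Rps10 showed the same layout, with 2456, 2826 and 2674 against 3873, 3402 and 2481 in the overexpressor line (-0.27, SE 0.19). Its knockout-line values were 2440, 2443 and 3537 against 3566, 3497 and 2716 (-0.23, SE 0.19). Rps19, mutated in some cases of Diamond-Blackfan anaemia, had -0.22 in the overexpressor and -0.21 in the knockout (SE 0.14 each). Rps3, which sits at the messenger RNA entry and has DNA repair activity, had -0.18 and -0.23 (SE 0.14 each), and Rps4x, encoded on the X chromosome, -0.20 and -0.082 (SE 0.15 each). Rps3a1, Rps7, Rps24 and Rps28 lay between -0.25 and -0.19 in the overexpressor and between -0.19 and -0.12 in the knockout.

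Rpsa, also known as the laminin receptor, was the only member whose groups did not overlap. It read 2508, 2858 and 2888 in the knockouts against 3081, 3142 and 3000 in their controls, a mean of 2751 ± 211 (SD, n = 3) against 3074 ± 71.4. Its log2 difference was -0.16 (SE 0.11, interval -0.39 to 0.069, adjusted p = 1.0, limma). All 3 knockouts were below all 3 controls for 1 of 25 members, and for 1.98% of all tested genes. In the overexpressor this held for 0 of 25 members, against 6.55% of all genes, and Rpsa there read 2626, 2767 and 2903 against 3419, 3042 and 2825 (-0.16).

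A few members did not share the direction or lay close to 0. Rps27, a zinc finger protein of the small subunit, read 449, 378 and 412 in the overexpressors against 353, 445 and 441 in their controls, with equal means of 413 (log2 difference 0.004, interval -0.23 to 0.24, adjusted p = 0.994, limma). In the knockout line it read 413, 393 and 403 against 426, 376 and 398 (0.011, interval -0.23 to 0.25), and the mutant and control values were interleaved in both lines. Rps13 and Rps29 were below 0 but close to it in both lines, at -0.044 and -0.043 for Rps13 and at -0.045 and -0.09 for Rps29. Rps13 read 2265, 2317 and 1489 in the knockouts. On the third knockout array, where Rps13 was lowest, 20 of 25 members were above their line's mean. Rps27l, a p53-inducible paralog of Rps27 and the only variant member tested, read 753, 689 and 1173 in the knockouts against 718, 728 and 569 in their controls. The third knockout made most of its log2 difference of 0.33 (SE 0.22, interval -0.16 to 0.81, adjusted p = 1.0, limma). In the overexpressors it read 559, 851 and 689 against 966, 697 and 599 (-0.095, SE 0.22), and the difference between the lines was -0.42 (SE 0.32, adjusted p = 0.893, limma).

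**Figure D2:**
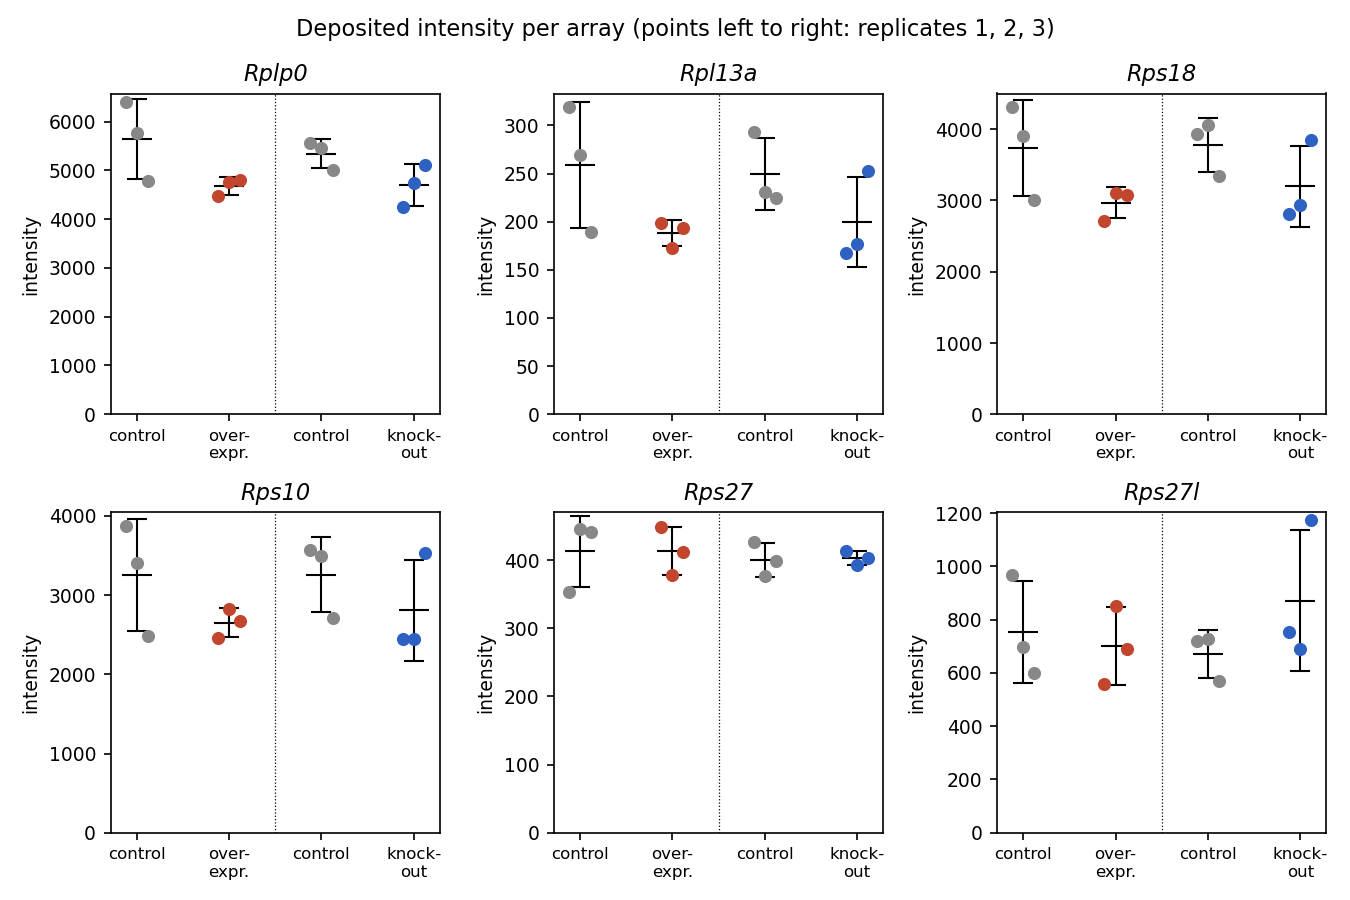
Intensity on each array for 6 members, with group means and SDs (bars) and replicates 1 to 3 from left to right in each group of 3 arrays; each y axis starts at 0. For Rplp0, Rpl13a, Rps18 and Rps10 the array labelled overexpressor control 3 sits among the overexpressors and the third knockout among its controls, while Rps27 is level.

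Members ranked the arrays of a line much alike. The first overexpressor control was the highest array of its line for 22 of 25 members, and the array labelled overexpressor 1 was the lowest for 17. The array labelled overexpressor control 3 was below the highest overexpressor for 24 of 25 members, which neither of the other controls was for more than 3. In the knockout line the first knockout was the lowest array for 18 members, the third knockout was above the lowest control for 22, and the third control was below the highest knockout for 24. As mean deviations of the 25 members from their line's mean (log2), the overexpressors stood at -0.2, -0.053 and -0.05 and their controls at 0.28, 0.15 and -0.13. The knockouts stood at -0.2, -0.11 and 0.13 and their controls at 0.17, 0.12 and -0.11. The group means differed by -0.2 and -0.12, and the SD among the 3 arrays of a group was 0.087 to 0.21. The median SD of a member within its groups was 0.182 on the log2 scale, near the 0.18 of all tested genes, and the median 95% interval of a member reached 0.32 to either side.

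Leaving out 1 array moved the size of the medians more than the direction. The overexpressor kept 23 or 24 of 25 members below 0, and the knockout 20 to 23. Without the array labelled overexpressor control 3 the overexpressor median was -0.32, where that of all tested genes was -0.1. In that fit 12 of 25 members had an unadjusted p under 0.05 by limma, none called after adjustment. The share of all tested genes at that p was not counted there, so the 12 stand without a background. Without the array labelled overexpressor 1 the member median was -0.16 (all tested genes -0.022), and without the first overexpressor control -0.13 (all tested genes -0.046). In the knockout the member median was -0.25 without the third knockout and -0.23 without the third control (all tested genes 0.02 and -0.0089). It was -0.078 without the first knockout and -0.091 without the first control (all tested genes 0.076 and 0.072). With the arrays of each line quantile normalized, the overexpressor median was -0.087 (all tested genes 0.0043) and 20 of 25 members were below 0. The share of all tested genes below 0 was not counted in these alternative fits.

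**Figure D3:**
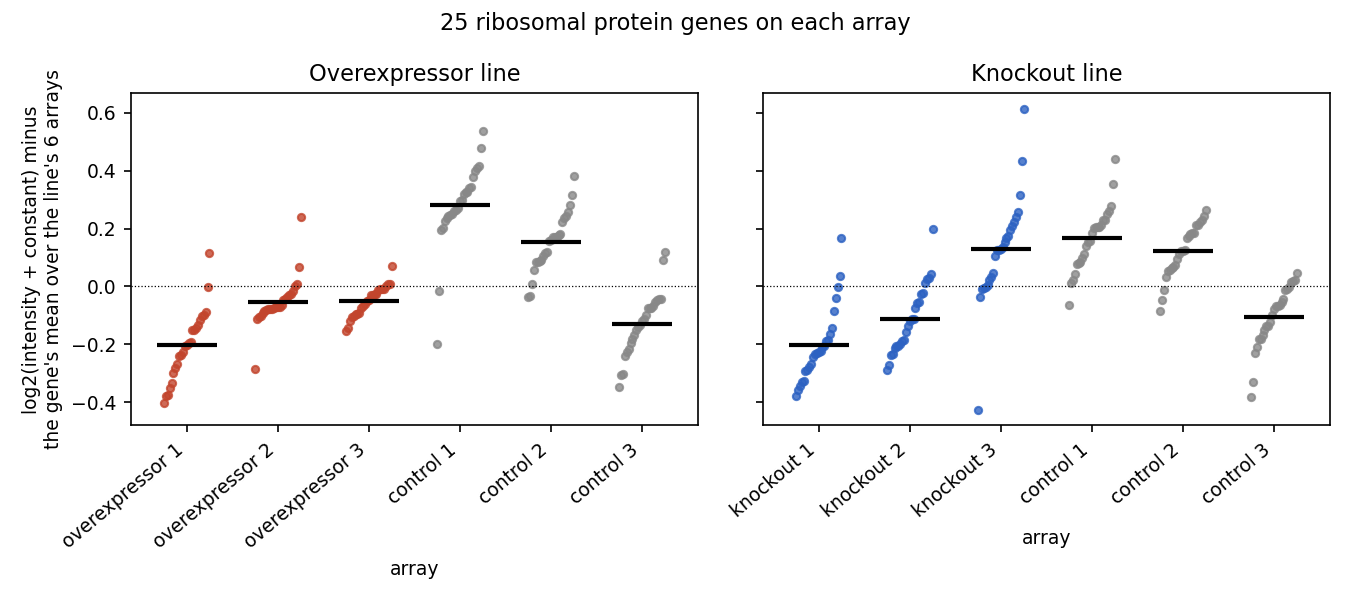
Deviation of each of the 25 tested members (dots) from its mean over the 6 arrays of its line, by array, with the array's mean as a bar (log2 scale). In both lines control arrays 1 and 2 are above and control array 3 below the line's mean, and the third knockout is above it.

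All tested genes together also varied from array to array. Their mean deviation was -0.17, 0.017 and 0.022 in the overexpressors and 0.11, 0.037 and -0.019 in their controls, and -0.038, 0.026 and 0.1 in the knockouts and 0.029, 0.037 and -0.15 in theirs. With these taken off, the members stood at -0.037, -0.07 and -0.073 in the overexpressors and 0.17, 0.12 and -0.11 in their controls. In the knockouts they stood at -0.16, -0.14 and 0.033, and in their controls at 0.14, 0.086 and 0.044. On that scale the array labelled overexpressor control 3 was below all 3 overexpressors, where before it had been above the one labelled overexpressor 1, and all 3 knockouts were below all 3 controls.

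Markers of other cell types differed between the same arrays, more closely with the members in the overexpressor line than in the knockout line. The 9 fibroblast markers had mean deviations of -0.32, -0.2 and -0.066 in the overexpressors against 0.45, 0.29 and -0.15 in their controls, and -0.28, -0.071 and 0.21 in the knockouts against 0.27, -0.1 and -0.033. The 8 smooth muscle markers had -0.31, -0.22 and -0.13 against 0.55, 0.39 and -0.3, and -0.24, -0.15 and -0.0054 against 0.42, 0.16 and -0.18. In the overexpressor line, controls 1 and 2 were above the line's mean for the members and both lists, and the other 4 arrays were below it. In the knockout line the second control had the members at 0.12 and fibroblast markers at -0.1, and the third knockout had the members at 0.13 and smooth muscle markers at -0.0054. In the overexpressor 8 of 9 fibroblast and 8 of 8 smooth muscle markers were below 0, each with a median of -0.4, against 71.3% of all tested genes. In the knockout 6 of 9 (median -0.12) and 8 of 8 (median -0.28) were, against 36.0% of all tested genes. Dpt, a matrix protein of fibroblasts, read 1065, 1076 and 1213 against 2261, 2136 and 1472 in the overexpressor line (-0.77, SE 0.21, adjusted p = 0.51, limma). Myh11, the smooth muscle myosin heavy chain, read 1087, 1026 and 1154 against 1945, 1933 and 1109 (-0.55, SE 0.19, adjusted p = 0.885, limma). Without the array labelled overexpressor control 3, Myh11 (-0.81) and Tagln (-0.80), which encodes an actin-binding protein of smooth muscle, passed the test (adjusted p = 0.0453 each, limma). Summed fibroblast intensity was 18740 to 22610 in the overexpressors against 21150 to 31140, and 17550 to 23840 in the knockouts against 20040 to 25790. Summed smooth muscle intensity was 11230 to 12660 against 11330 to 19520, and 14830 to 17980 against 15810 to 24140. No marker of either list was below the log constant on all arrays, and none was called with all arrays.

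Most tested macrophage, endothelial and mesothelial markers lay below 0 in the overexpressor too, where 71.3% of all tested genes did (median -0.075). Of macrophage markers 8 of 9 were below 0 (median -0.27), of endothelial markers 8 of 8 (-0.27) and of mesothelial markers 5 of 5 (-0.24), and none was called. Macrophage markers stood at -0.17, -0.15 and -0.016 on the overexpressor arrays and 0.56, 0.09 and -0.31 on their controls. Endothelial markers stood at -0.33, -0.089 and 0.1 against 0.27, 0.093 and -0.049, and mesothelial markers at -0.29, -0.11 and -0.038 against 0.68, -0.00045 and -0.24. In the knockout 4 of 9 macrophage markers (median 0.026), 4 of 8 endothelial (0.027) and 4 of 5 mesothelial (-0.13) were below 0. Of all tested genes 36.0% were below 0 there (median 0.045). Summed macrophage intensity was 5168 to 5731 in the overexpressors against 4661 to 9042, and 4267 to 5880 in the knockouts against 4204 to 5678. Summed endothelial intensity was 2907 to 4098 against 3668 to 4504, and 3048 to 5088 against 3655 to 4578. Summed mesothelial intensity was 2615 to 3165 against 2714 to 5448, and 2150 to 2701 against 2055 to 2785. Of 4 tested B cell markers 4 were below 0 in the overexpressor and 2 in the knockout, Ms4a1 (-0.16) and Cd79b (-0.11). Ighm was called higher in the knockout (1.4, SE 0.2, adjusted p = 0.016, limma), where 0.0876% of all tested genes were called. Of 4 T cell markers 2 were below 0 in the overexpressor and 1 in the knockout, and 0 were called. Of 8 reproductive tract markers 5 and 4 were below 0, and of 2 erythroid markers 0 and 1. Of 9 fat cell markers 4 were below 0 in the overexpressor (median 0.033) and 2 in the knockout (median 0.06). The part of any of these cell types in the result was not tested.

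**Figure D4:**
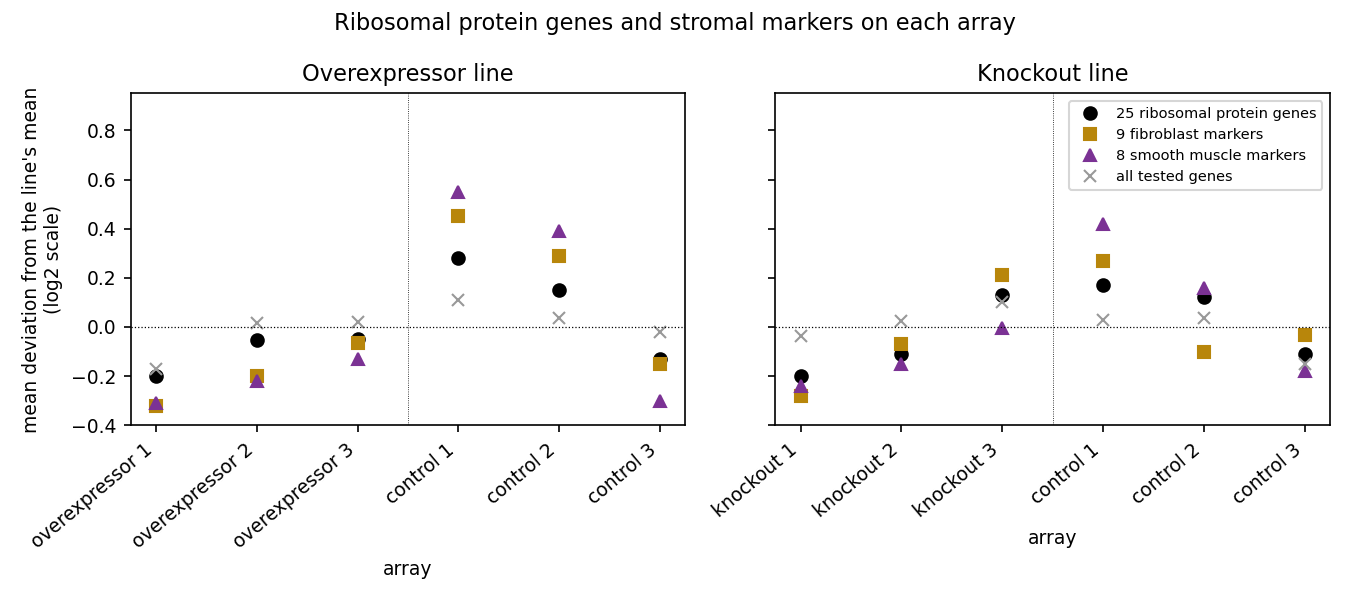
Mean deviation of the 25 members, 9 fibroblast markers, 8 smooth muscle markers and all tested genes from the line's mean on each array (log2 scale). The first overexpressor control is the highest array of its line for all 4 sets, and the array labelled control 3 is below 0 for all 4.

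Several members had more than one probe set, and these did not always go the same way. Over all 31 tested member probe sets, 26 (83.9%) were below 0 in the overexpressor, against 70.3% of all tested probe sets. In the knockout 29 (93.5%) were, against 37.0%. Of 6 members with several tested probe sets, 4 had opposite signs in the overexpressor (Rpl19, Rpl22, Rpl7 and Rps4x) and 0 in the knockout. The second probe set of Rpl19 read 414, 576 and 606 against 425, 431 and 465 in the overexpressor line (0.24, SE 0.14), while the brightest gave -0.19 (SE 0.14). The other 3 second probe sets lay between 0.028 and 0.04. In contrast, the second sets of Rpl10a (-0.44) and Rps28 (-0.36, unadjusted p = 0.0242, adjusted p = 0.913, limma) lay further from 0 than the brightest ones at -0.41 and -0.19. The brightest probe sets named for Rps24 and Rpl7 carry the same source record in the platform annotation. One of these names may therefore be wrong, and the same gene may be counted under both. The other probe set of Rps24, with a different source record, read 91.1 to 131 and was not tested. Ribosomal protein genes have many processed pseudogenes, and probes can read these too.

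A further 39 probe sets name a ribosomal protein gene beside other genes and were kept out of the members. Of the 34 tested, 33 were below 0 in each line, with medians of -0.25 in the overexpressor (-0.45 to 0.009) and -0.17 in the knockout (-0.36 to 0.12). Of all 7454 tested probe sets, 70.3% were below 0 in the overexpressor (median -0.072) and 37.0% in the knockout (median 0.042). None of the 34 was called, where 6 of all tested probe sets were in the overexpressor and 9 in the knockout. On the arrays they stood at -0.24, -0.033 and -0.094 in the overexpressors against 0.32, 0.19 and -0.14 in their controls. They come from the same arrays and are no independent evidence.

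The 10 members left out as dim were Rpl32, Rpl35a, Rpl38, Rpl39, Rpl39l, Rpl7l1, Rps14, Rps15, Rps20 and Rps4l, a transcribed pseudogene in RefSeq. Rps4l read 74.1 to 270.0 over the 12 arrays, and Rpl32 spanned 21.9 to 173. The brightest probe sets of Rpl38, which acts in the translation of Hox messenger RNAs, read 46.6 to 128, and that of Rps15 79.2 to 137. Rps14, Rps20 and Rpl39 were below the log constant on 6, 7 and 5 of the 12 arrays. With no filter, 29 of all 35 members were below 0 in the overexpressor (median -0.18) and 28 in the knockout (median -0.12), and 0 were called. The medians of all genes in that fit were -0.059 in the overexpressor and 0.033 in the knockout. Among the role genes listed for description, Rpl3, Rpl5, Rpl11, Rpl10, Rpl23, Rps2, Rps6 and Rps27a had no single-gene probe set and were not analysed here.

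For the difference between the lines, overexpressor minus knockout, 22 of 25 members were below 0, with a median of -0.069. Among all tested genes 73.5% were, with a median of -0.12, on the same side of 0 as the members. Members below 0 in both lines numbered 23 of 25, against 1436 of all tested genes (25.2%).

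The other lists of the translation machinery had no gene past the test. In the knockout most of these lists had a median above 0, as had all tested genes (median 0.045, 64.0% above 0). The median of the members was below 0 there. In the overexpressor 71.3% of all tested genes were below 0 (median -0.075). The mitochondrial ribosome, whose proteins are made in the cytosol and imported, had 50 of 101 genes tested. In the overexpressor 41 were below 0 (median -0.092), and in the knockout 44 were above 0 (median 0.12). Mrpl40 read 292, 314 and 334 in the knockouts against 219, 242 and 170, without overlap (0.51, SE 0.16, adjusted p = 1.0, limma). Of 31 initiation factors, which load messenger RNA on the ribosome, 26 were below 0 in the overexpressor (median -0.1) and 23 above 0 in the knockout (0.054). Of 10 elongation and termination factors, 7 were below 0 in the overexpressor (median -0.088) and 6 above 0 in the knockout (0.052).

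Eef2, the translocation factor, had the smallest p of the elongation list in the overexpressor (limma) and was described for that reason. The list as a whole had a median of 0.052 in the knockout, but Eef2 itself had the members' layout. It read 2754, 2427 and 2761 against 3489, 3357 and 2685 in the overexpressor line (-0.25, SE 0.13, adjusted p = 0.913, limma). Its knockout-line values were 2338, 2809 and 2906 against 3046, 2916 and 2859 (-0.14, SE 0.13, adjusted p = 1.0, limma).

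Of 34 ribosome biogenesis genes, 26 were below 0 in the overexpressor (median -0.12) and 19 in the knockout (-0.046). Npm1, a nucleolar chaperone of ribosome assembly, read 1054, 1182 and 1239 against 2004, 1705 and 1093 in the overexpressor line, with the array labelled control 3 again among the mutants (-0.41, SE 0.22, adjusted p = 0.913, limma). Rrp9, a U3 small nucleolar protein, read 627, 687 and 638 against 1015, 860 and 680 (-0.35, SE 0.13, adjusted p = 0.901, limma). RNA polymerase I genes, which make or regulate ribosomal RNA, had 10 of 12 below 0 in the overexpressor (median -0.12) and 10 above 0 in the knockout (0.026). Among ribosome-associated genes, such as the nascent chain factor Naca (-0.28, SE 0.20, in the overexpressor), 8 of 8 were below 0 in the overexpressor (-0.091) and 5 above 0 in the knockout (0.066).

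Of 13 growth control genes, the kinases and regulators above ribosome production, 12 were below 0 in the overexpressor (median -0.1) and 8 in the knockout (-0.014). Akt2, the insulin-signalling kinase of fat cells, read 647, 867 and 1030 in the overexpressors against 1003, 1018 and 1278 (-0.38, SE 0.19, adjusted p = 0.913, limma). Without the arrays labelled overexpressor 1 and control 3 the value of Akt2 was -0.093. It read 954, 1105 and 1431 in the knockouts against 765, 936 and 732, without overlap (0.49, SE 0.19, adjusted p = 1.0, limma). The difference between the lines was -0.87 (SE 0.27, adjusted p = 0.641, limma).

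**Figure D5:**
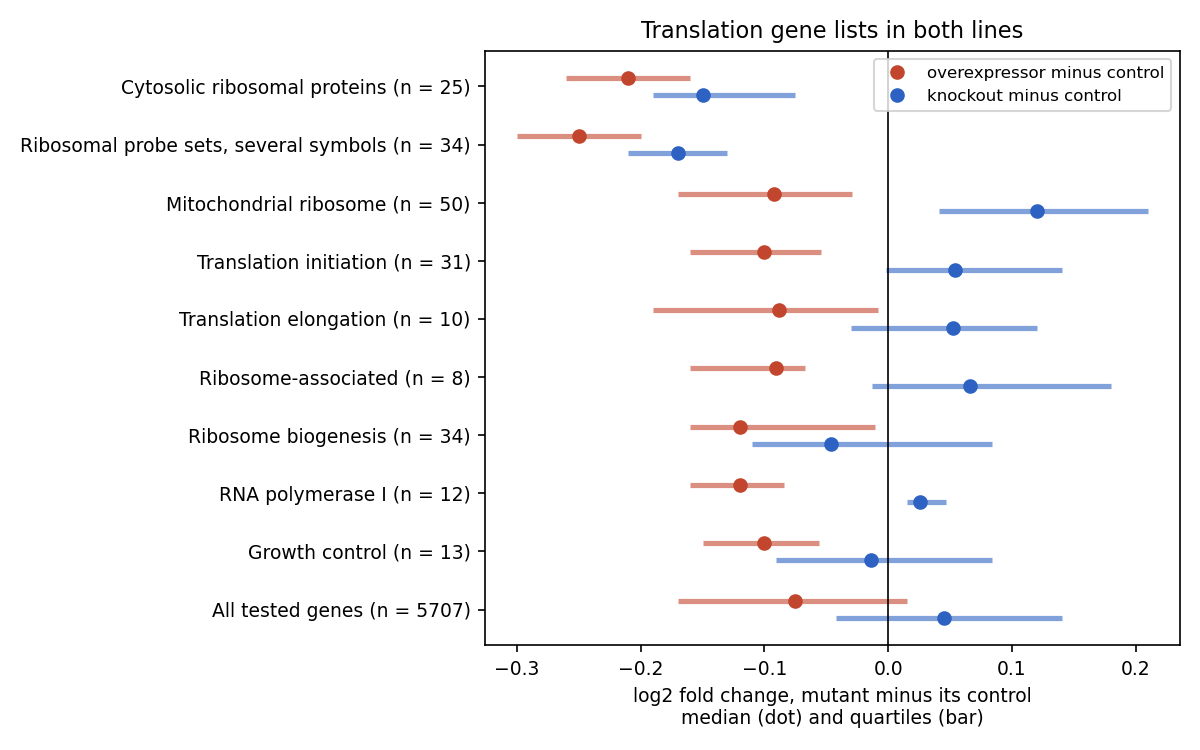
Median (dots) and quartiles (bars) of the log2 difference in each line for the 25 members, the 34 shared ribosomal probe sets, 7 other translation lists and all tested genes. Every list is left of 0 in the overexpressor, and in the knockout the members and the shared ribosomal probe sets have the medians furthest below 0.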

How the data were processed

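RNA was measured on 12 Affymetrix arrays, 3 per group, from separate mice per the labels, and groups were read from the sample titles. The deposited table holds intensity on a linear scale, from 21.9 to 8945, and the lowest value differs between the lines. How the authors summarised and scaled the arrays is not given in the sources used here, and depth has no counterpart on arrays, whose number limits the precision.

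Of 12422 probe sets, 10833 had 1 platform gene symbol, 396 several and 1193 none, and 10817 were matched to current RefSeq names by gene ID. The 40% dimmest by mean over 12 arrays were left out, leaving 7454. All 12 arrays were fitted together with 4 group means (limma 3.58.1, R 4.3.3, lmFit and eBayes with trend, 8 residual degrees of freedom) on log2(intensity + 36.92), the table's 10th percentile. The fit was tested on simulated data with planted changes larger than those of the members and noise drawn independently for each probe set. That test does not bear on changes of the members' size or on shifts shared by the members of an array. Alternatives were 2 other constants, 2 other filters, median and quantile scaling, each line alone, a replicate block and leaving out each array. Leaving out both arrays whose Slc2a4 read against their labels was added after seeing the data.

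Members and gene lists were chosen with earlier results of these data known. The members described singly were Slc2a4, members with a listed role, those with the smallest p per contrast, variants, members whose groups did not overlap and genes with probe sets of opposite sign. For other lists, up to 3 genes with the smallest p per contrast were eligible. Same-numbered arrays did not deviate together, so numbers were not treated as pairs. Protein sequences were not used here.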

Additional observations from a re-analysis of the deposited data

How the results depend on the processing

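No member was called in either line, or for the difference between the lines, under any of the alternatives run, and the member median stayed below 0 in both lines under each of them. Leaving out 1 array at a time, the median ran from -0.32 to -0.13 in the overexpressor and from -0.25 to -0.078 in the knockout. Some single members changed sign. With array medians subtracted, Rps29 (0.013) and Rps13 (0.014) were above 0 in the overexpressor and Rps27 (-0.026) was below 0 in the knockout. With quantile normalization, Rps27l (0.0084), Rps29 (0.061), Rps13 (0.07) and Rpsa (0.0084) were above 0 in the overexpressor, and in the knockout Rpl37a was at 0.00027, Rps27 at -0.046 and Ttf1, an RNA polymerase I gene, at -0.017. With single arrays left out, the overexpressor ranges were -0.24 to 0.09 for Rps27l, -0.23 to 0.11 for Rps29, -0.073 to 0.0049 for Rps13 and -0.1 to 0.061 for Rps27. The knockout ranges were -0.2 to 0.00059 for Rps4x, -0.33 to 0.067 for Rps29, -0.13 to 0.011 for Rpl22, -0.15 to 0.16 for Rps13, -0.19 to 0.1 for Rpl37a, -0.028 to 0.054 for Rps27 and -0.2 to 0.00034 for Rpl7a. Outside the members they were -0.021 to 0.33 for Srp9 and -0.2 to 0.018 for Polr1d. The cause of these sign changes was not tested. Among all 7454 tested probe sets, 6 were called in the overexpressor, 1 with its own 6 arrays alone, 11 with medians subtracted, 11 with quantile normalization, 3 without the second overexpressor control and 21 without the array labelled overexpressor control 3. With the arrays labelled overexpressor 1 and control 3 both left out, chosen after seeing the data, 21 were called and Rps27 stood at -0.007. Same-numbered arrays correlated at -0.346 to 0.02 in their deviations from group means. With the replicate block the member medians were -0.21 and -0.15, 0 members were called, and calls among all probe sets in the knockout went from 9 to 0. With 3 arrays per group, member differences under about 0.32 on the log2 scale lie within the median interval.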
